A study of Mus musculus with 8 samples.

Results

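The miRNA repertoire of mouse Kupffer cells (KC), macrophages that reside in the liver sinusoids, was described from the 4 KC samples among the 8 samples of the series. The other 4 samples were blood monocytes and were not compared here. Each KC sample was a pool of F4/80-selected liver cells from Balb/C mice, 5 animals per pool by the labels (4 to 5 by the methods), with no treatment stated, and 100 ng of total RNA entered an nCounter mouse miRNA panel. The assay joins a species-specific tag to each miRNA by ligation, hybridises the product to a colour-coded reporter probe and counts the reporters, without amplification. A row counted as above background where it exceeded the highest of the 8 negative control probes of the same sample. By this rule 25 of the 566 mouse miRNA rows of the panel (4.42%) passed in all of the 4 KC samples, and these 25 miRNAs are described below. The number depends on the limit, and with the mean negative control plus 3 SD it was 15 (closing section).

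A miRNA is a short RNA that guides Argonaute proteins to messenger RNAs and lowers their translation or stability. Its seed, bases 2 to 8 from the 5′ end, does most of the pairing with targets, so miRNAs with the same seed are grouped as a family and share many predicted targets. Many miRNAs are encoded side by side and are cut from a common primary transcript. In blood cells and the liver, miR-142 marks haematopoietic cells, miR-223 is abundant in myeloid cells, miR-155 is induced when macrophages are activated, miR-122 is the main miRNA of hepatocytes, and miR-451, miR-144 and miR-486 are typical of red cells. Many differentiated cells hold much let-7.

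The mature sequences were read from RefSeq annotation of the mouse genome (GRCm38.p6). Any miRNA with a match on 1 chosen chromosome was left out of the pairing. Of the 25 miRNAs, 15 were paired with a sequence. The sequences of miR-122, miR-1944, miR-720, miR-486, miR-2141, miR-150, miR-466g, miR-30b, miR-2140 and miR-714 are not shown here. The 15 sequences were 19 to 23 bases long and had 28.6% to 66.7% G and C, with a median of 40.9%. They carried 11 different seeds, and 1 seed, that of let-7, was shared by 5 of them. The let-7 family is shown whole because 5 of its 9 panel rows were above background in all 4 samples while others with nearly the same letters were not. Capitals mark the seed in every sequence.

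let-7a: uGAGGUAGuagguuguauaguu
let-7b: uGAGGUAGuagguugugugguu
let-7c: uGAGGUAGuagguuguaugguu
let-7d: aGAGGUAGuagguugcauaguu
let-7e: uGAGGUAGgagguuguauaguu
let-7f: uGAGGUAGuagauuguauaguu
let-7g: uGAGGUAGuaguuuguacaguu
let-7i: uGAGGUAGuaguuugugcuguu
miR-98: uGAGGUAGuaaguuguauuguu

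The 2 arms of the miR-142 hairpin are shown because 1 of them was among the highest miRNAs of all 4 samples and the other lay near background. They come from chr11:87756867-87756887 and chr11:87756903-87756925 on the plus strand.

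miR-142-5p: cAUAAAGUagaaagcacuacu
miR-142-3p: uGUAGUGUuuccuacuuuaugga

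The miR-200 family and the miR-15/16 pairs are shown because a single member of each was above background in all 4 samples. miR-200b, miR-200c and miR-429 share a seed that differs by 1 base from that of miR-200a and miR-141, and miR-16, miR-15a and miR-15b have the same seed.

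miR-200b: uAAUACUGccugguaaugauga
miR-200c: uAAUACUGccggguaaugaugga
miR-429: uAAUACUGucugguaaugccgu
miR-200a: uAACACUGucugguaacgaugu
miR-141: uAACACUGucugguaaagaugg
miR-16: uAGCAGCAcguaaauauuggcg
miR-15a: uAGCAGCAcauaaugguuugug
miR-15b: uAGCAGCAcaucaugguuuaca

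The total over the mouse rows was 9379, 9658, 8669 and 10194 barcode counts in KC 1 to KC 4 (9475 ± 635, SD, n = 4). The median row held 11, 11.5, 8 and 11 counts, below the mean negative control of 12.9, 14.8, 11.9 and 12.4 counts. The highest negative control, which set the limit, was 20, 31, 23 and 25 counts. With these limits 149, 37, 49 and 137 mouse rows were above background in KC 1 to KC 4. KC 2, which had the highest limit, had the fewest rows above it, and KC 1, which had the lowest limit, had the most.

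The panel also carried 33 herpesvirus rows and 3 plant or worm rows, 36 rows in all that name no mouse miRNA, which gave a second view of background. In KC 1 to KC 4, 9, 0, 0 and 5 of these 36 rows were above the limit, or 25%, 0%, 0% and 13.9%, beside 26.3%, 6.54%, 8.66% and 24.2% of the mouse rows. In KC 1 a mouse row was thus above the limit about as often as 1 of the 36 other rows. None of the 36 rows was above the limit in 3 or in all 4 samples, which allows a share of up to 8.33%, while 21 mouse rows were above it in 3 samples and 25 in all 4. Being above background in 1 or 2 samples was seen for 145 mouse rows, and for 11 of the 36 other rows.

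**Figure D1:**
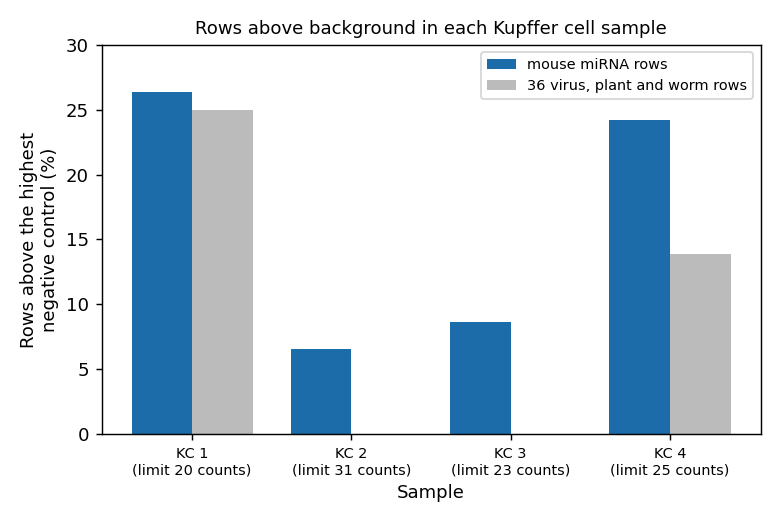
Percent of panel rows above the highest negative control in each KC sample, for the 566 mouse rows (blue) and the 36 virus, plant and worm rows (grey), with the limit in barcode counts under each sample. Both kinds of row passed often in KC 1 and KC 4, and in KC 2 and KC 3 only mouse rows passed.

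The 25 miRNAs together held 29.1%, 32.7%, 40.7% and 26.3% of all mouse barcode counts in KC 1 to KC 4 (32.2% ± 6.22, SD, n = 4). Rows at or below the limit held 35.5%, 62.7%, 50.3% and 39.2%, so a share is a share of a total that holds much background. A share or rank within a sample does not depend on the factor by which the authors scaled that sample. Because ligation and probe capture differ between miRNAs, the order of counts is an order of signal and not of molecules.

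The same 5 miRNAs were the 5 highest in all 4 samples: miR-142-5p, miR-122, miR-1944, let-7b and miR-720. They held 17.8%, 20.2%, 27.9% and 14.8% of the mouse signal in KC 1 to KC 4. Their order changed between samples, and either miR-142-5p or miR-122 was first. Of the 10 highest rows of each sample, 7 were shared by all 4 samples, the other 2 of them being let-7c and miR-486, and 14 different rows appeared in at least 1 of the 4 lists. At 25 rows, 14 were shared and 46 appeared in at least 1 list, so the shared part was smaller at 10 and 25 rows than at 5. Within the first 3 rows, 2 were shared and 4 appeared in at least 1 list.

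**Figure D2:**
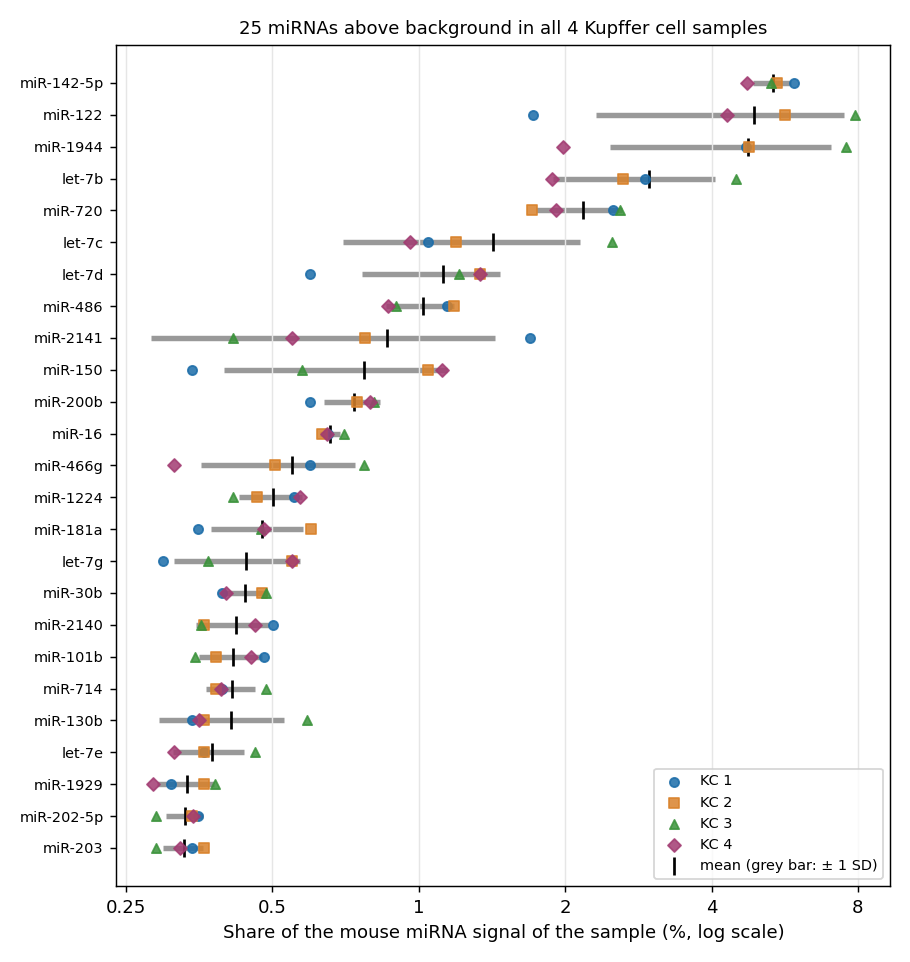
Share of the mouse miRNA signal (percent, log scale) of each of the 25 miRNAs in KC 1 to KC 4 (coloured points), ordered by mean, with the mean (black tick) and 1 SD (grey bar, n = 4). The 5 highest miRNAs stand above 1.7% in every sample, and most of the lower 13 lie under 0.6% in every sample.

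miR-142-5p, from the haematopoietic miR-142 hairpin, had 554, 526, 459 and 483 counts, or 5.91%, 5.45%, 5.29% and 4.74% of the mouse signal (5.35% ± 0.48). It ranked 1, 2, 3 and 1. It was the highest miRNA by mean share and the steadiest of the first 5, with a coefficient of variation (CV) of 9.01%, and its count was 17.0 to 27.7 times the limit. The 3′ arm of the same hairpin, miR-142-3p, had 21, 26, 19 and 26 counts and was above the limit in 2 samples. In those 2 samples it was 1 count over the limit, so no ratio of the arms is given.

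miR-122, the hepatocyte miRNA, had 161, 548, 685 and 439 counts, or 1.72%, 5.67%, 7.90% and 4.31% (4.90% ± 2.59). It was at rank 1 in KC 2 and KC 3, at rank 2 in KC 4 and at rank 5 in KC 1. Its share in KC 3 was 4.60 times that in KC 1, the widest range of the 25 miRNAs. The order of miR-122 and miR-142-5p was not settled by these samples, as each was the higher in 2 of 4.

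miR-1944 had 442, 462, 657 and 202 counts, or 4.71%, 4.78%, 7.58% and 1.98% (4.76% ± 2.29), and ranked 2, 3, 2 and 3. KC 4 was low for it. miR-720, an entry that has since been read as a fragment of a transfer RNA, had 235, 165, 225 and 195 counts, or 2.18% ± 0.44, and ranked 4 or 5 in every sample.

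let-7b had 274, 254, 389 and 192 counts, or 2.92%, 2.63%, 4.49% and 1.88% (2.98% ± 1.10), and ranked 3, 4, 4 and 5. Along the list of 25 ordered by mean share, all 24 pairs of neighbours had share ranges that overlapped. Within samples, miR-1944 was above let-7b in 4 of 4, and miR-720 was above let-7c in 4 of 4.

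**Figure D3:**
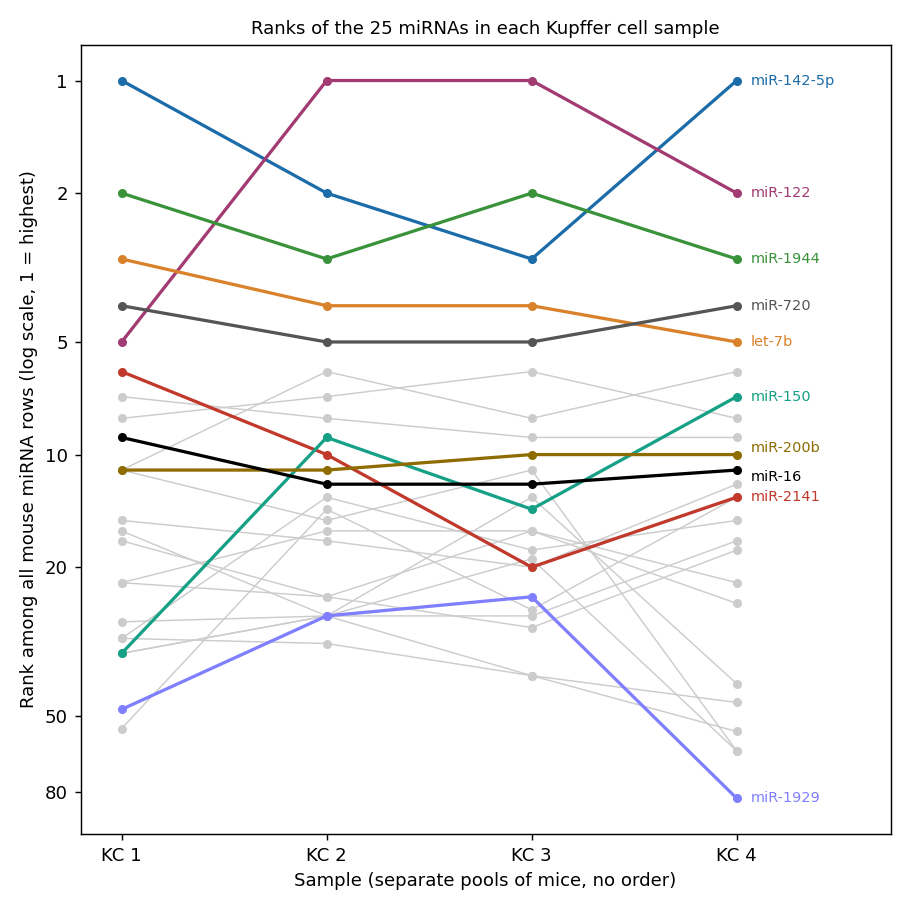
Rank of the 25 miRNAs among the 566 mouse rows in KC 1 to KC 4 (log scale, 1 at the top), 1 line per miRNA, with 10 of them coloured and named. The first 5 never leave ranks 1 to 5, while miR-150 runs from rank 7 to 34 and miR-1929 from rank 24 to 83.

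After the first 5, let-7c had 98, 115, 217 and 98 counts (1.43% ± 0.72) and KC 3 was high for it. let-7d had 56, 129, 105 and 136 counts (1.12% ± 0.35) and KC 1 was low for it. miR-486, typical of red cells, had 107, 114, 78 and 88 counts (1.02% ± 0.16) and ranked 7 to 9. Of these, miR-486 varied least.

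miR-2141 was at rank 6 in KC 1 and rank 20 in KC 3. Its counts were 159, 75, 36 and 56 (0.859% ± 0.577), and its CV of 67.2% was the highest of the 25. miR-150, abundant in mature lymphocytes, had 32, 101, 50 and 114 counts (0.771% ± 0.374) and ranked 34, 9, 14 and 7. These were the miRNAs of the first 10 whose place depended most on the sample.

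miR-200b, an epithelial miRNA, had 56, 72, 70 and 81 counts (0.736% ± 0.096) and ranked 11, 11, 10 and 10. miR-16, which is present in most cells and high in red cells, had 61, 61, 61 and 66 counts (0.658% ± 0.031) and ranked 9, 12, 12 and 11. With a CV of 4.76%, miR-16 was the steadiest of the 25, and its spread was below the 12.7% that counting alone would give at its level. A spread below that of counting was common, seen for 9 of the 25 miRNAs and 295 of all 566 mouse rows. The ranks of miR-200b and miR-16 moved by no more than 3 places.

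The next miRNAs, with mean shares of 0.548% to 0.329%, were miR-466g, miR-1224, miR-181a, let-7g, miR-30b, miR-2140, miR-101b, miR-714, miR-130b, let-7e, miR-1929, miR-202-5p and miR-203. miR-30b had 37, 46, 42 and 41 counts and miR-714 had 37, 37, 42 and 40, and neither left the first 25 ranks. miR-466g had 56, 49, 67 and 32 counts and let-7g had 28, 53, 32 and 56, and their ranks ran from 11 to 62 and from 13 to 54. At this level a change of a few counts moved a miRNA past many rows. miR-1224 had 52, 45, 36 and 58 counts and miR-181a, which acts in lymphocyte development, had 33, 58, 41 and 49. All 4 counts of the remaining 7 lay between 25 and 51.

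The exact Poisson 95% interval of the count, which covers counting error only, was wholly above the limit in all 4 samples for 15 of the 25 miRNAs. These were the first 12 together with miR-1224, miR-181a and miR-30b. It was above the limit in no sample for miR-1929, which had 29, 35, 33 and 29 counts, and in 1 sample each for miR-202-5p and miR-203. Just inside the rule, miR-202-5p had 33, 33, 25 and 35 counts and was nearest to the limit in KC 2, at 1.06 times. Just outside, miR-2183 had 27, 31, 33 and 37 counts and equalled the limit of KC 2, and miR-25 had 24, 30, 29 and 37 counts and was 1 count short in KC 2. Rows that were above the limit in 3 samples could hold more signal than some of the 25. miR-376a had 56, 44, 125 and 22 counts, and its mean share would have placed it 12th.

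The spread between samples was set against the spread that counting alone gives, as a ratio whose expected value is 1. This ratio was under 2 for 11 of the 25 miRNAs, beside 466 of all 566 mouse rows. It was over 10 for 7 of the 25, and their median was 2.48. The 7 were miR-122, miR-1944, let-7b, let-7c, let-7d, miR-2141 and miR-150, and over all 566 mouse rows 8 had a ratio over 10 and the median was 0.960. At the low counts of most other rows the counting error is wide, and only large differences between samples could be seen there. Of the 25, 13 had their highest share in KC 3, 5 in KC 1, 4 in KC 2 and 3 in KC 4. KC 3 also had the lowest total over the mouse rows, 8669 counts. miR-16 was among the 13 although its count was 61 in KC 3 and 66 in KC 4. The same tally over all 566 mouse rows was not made.

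The miRNAs did not vary together. By share, as for all miRNAs of this paragraph, miR-1944, let-7b, let-7c, miR-466g, let-7e and miR-1929 were highest in KC 3 and lowest in KC 4. By count, miR-1929 was highest in KC 2 (35) and equal in KC 1 and KC 4 (29). The counts of let-7c were also equal in KC 1 and KC 4 (98). The positive ligation controls, synthetic RNAs added to each reaction, were also highest in KC 3 and lowest in KC 4, with a geometric mean of 2460, 2148, 2821 and 1217 counts in KC 1 to KC 4, and their part in these shares was not tested. let-7d, miR-150, miR-181a and let-7g were higher in KC 2 and KC 4 than in the other 2 samples, with KC 1 the lowest. miR-122, miR-200b, miR-30b and miR-130b were lowest in KC 1 too. miR-2141, miR-2140, miR-101b and miR-202-5p were highest in KC 1 and lowest in KC 3. By count, miR-101b (46) and miR-202-5p (35) were highest in KC 4.

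Spearman's rho between the samples over the 25 miRNAs was 0.733 to 0.923 for the 6 pairs of samples, with a median of 0.773. Over these 25, KC 2 and KC 4 had the highest rho and KC 1 and KC 4 the lowest. Over all 566 mouse rows rho was 0.836 to 0.866, and there KC 1 and KC 4 had the highest value and KC 2 and KC 3 the lowest, so the order of the pairs depended on the rows used. Over the 36 virus, plant and worm rows it was 0.774 to 0.850, and over the 375 mouse rows that were above background in no sample it was 0.677 to 0.716. The rows that were never above background thus had lower values than the 25, but still well above 0, and the 36 other rows, of which 11 passed in 1 or 2 samples, had values within the range of the 25. The same probes were counted in every sample.

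The let-7 family held 5.64%, 6.84%, 9.70% and 5.69% of the mouse signal in KC 1 to KC 4. The b, c, d, e and g members were above background in all 4 samples. let-7e had 34, 35, 40 and 32 counts. let-7i had 16, 45, 26 and 36 counts and passed in 3 samples, let-7f had 19, 23, 24 and 25 and passed in KC 3, and miR-98 had 3, 6, 7 and 4 and passed in none. let-7a was at 1 count in every sample.

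let-7a stood apart from its relatives although its sequence differs little from theirs. With positions counted from the 5′ end, the substitution from let-7a to let-7c is A19G, to let-7e U9G and to let-7f G12A, each a single base. let-7b differs from let-7a by A17G and A19G. 4 rows of the panel, let-7a, miR-155, miR-34c and miR-543, were at exactly 1 count in all 4 KC samples, below the mean negative control, and what sets these rows to 1 was not tested. In single samples a count of 1 was common, with 45, 38, 51 and 45 mouse rows in KC 1 to KC 4. Recovered counts were set to no less than 1, so a 1 can be a floor value. How far the probes tell apart miRNAs that differ by a single base was not tested either, and the split of counts among the let-7 rows is uncertain for this reason.

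**Figure D4:**
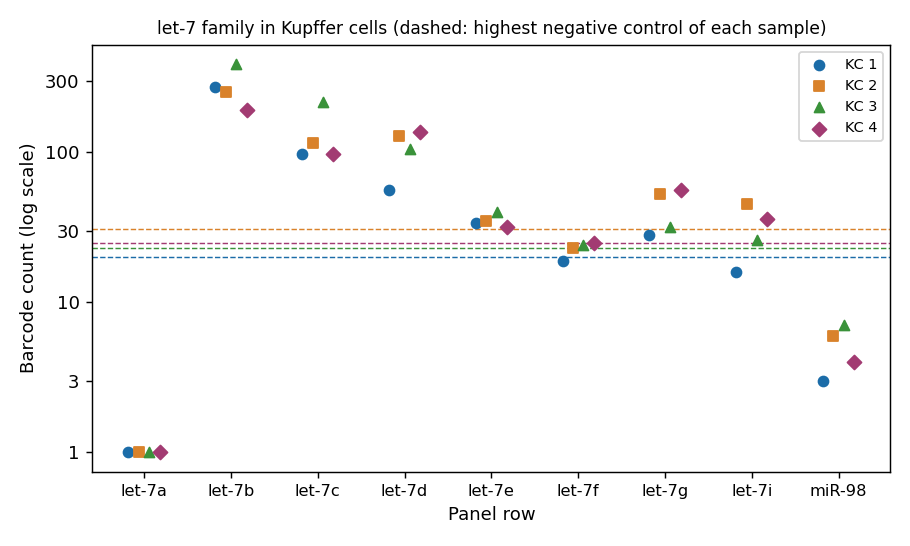
Barcode counts (log scale) of the 9 let-7 family rows in KC 1 to KC 4, with the highest negative control of each sample as a dashed line in its colour. The b, c, d, e and g members lie above the line of their own sample in all 4, let-7a lies at 1 count and miR-98 at 3 to 7.

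The counts of miRNAs encoded beside members are given as a description, since 80.6% of all mouse rows were above background in at most 1 sample and a low neighbour is not particular. Mirlet7a-1, Mirlet7f-1 and Mirlet7d lie within 2261 bases on chromosome 13, and their mature products had 1, 19 to 25 and 56 to 136 counts. The let-7a and let-7f sequences are also encoded elsewhere, so a row can collect more than 1 gene. Mirlet7c-2 and Mirlet7b lie within 801 bases on chromosome 15, inside the non-coding gene Lncppara, at chr15:85706616-85706637 and chr15:85707325-85707346 for the mature sequences. Here both products were among the first 8 in all 4 samples, and let-7b had more counts than let-7c in each.

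Mir200b, Mir200a and Mir429 lie within 1846 bases on chromosome 4, with mature miR-200b at chr4:156055685-156055706 on the minus strand. miR-200b had 56 to 81 counts. miR-200a had 15, 11, 14 and 20, and miR-429 had 1, 2, 5 and 7, and both were above the limit in no sample. miR-200c and miR-141, encoded together on chromosome 6, had 22, 21, 17 and 33 and 8, 6, 4 and 1 counts. Only miR-200b of the 5 epithelial miRNAs was above background in all 4 samples, and miR-200c passed in 2.

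miR-16 is made from 2 genes, Mir16-1 beside Mir15a in Dleu2 on chromosome 14 and Mir16-2 beside Mir15b in Smc4 on chromosome 3. miR-16 had 61 to 66 counts, miR-15b had 14, 30, 10 and 30, and miR-15a had 3, 8, 8 and 5. miR-130b, with 32, 35, 51 and 36 counts, lies within 436 bases of Mir301b, whose product had 3, 8, 7 and 4. let-7e lies between Mir99b and Mir125a within 692 bases on chromosome 17, and here the 3 rows were close, with 32 to 40 counts for let-7e, 22 to 36 for miR-99b and 20 to 30 for miR-125a-5p. miR-181a is encoded beside miR-181b on chromosome 1, within 264 bases, and the joint row of miR-181b and miR-181d had 28, 33, 18 and 35 counts beside 33, 58, 41 and 49 for miR-181a. Relatives encoded elsewhere were also far apart in places. miR-101a had 7, 2, 8 and 6 counts beside 30 to 46 for miR-101b, and miR-130a, which has the seed of miR-130b, had 6, 2, 1 and 4.

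**Figure D5:**
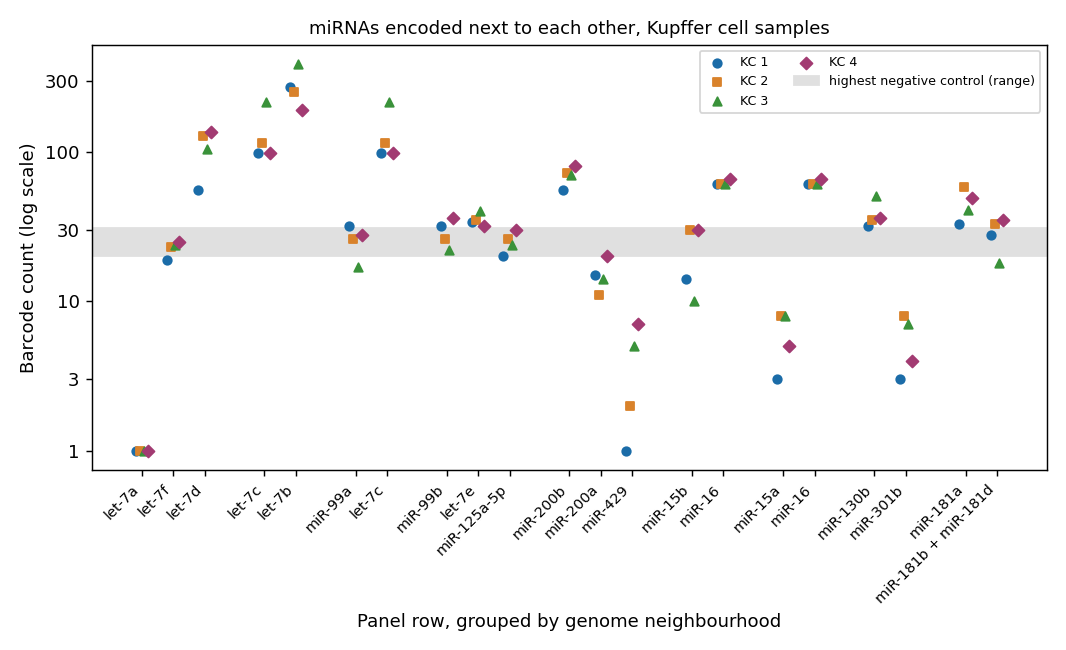
Barcode counts (log scale) in KC 1 to KC 4 of miRNAs encoded near each other, grouped by neighbourhood, with the range of the highest negative control (20 to 31 counts) as a grey band. let-7c and miR-16 are drawn in 2 neighbourhoods because each is encoded in both, and in most groups 1 miRNA lies above the band and a neighbour in or under it.

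The KC samples were then read against lists of miRNAs typical of cell types. Over all 566 mouse rows, 4.42% were above background in all 4 samples, 3.71% in 3 and 66.3% in none, and with lists of 4 to 13 rows a count of 0 or 1 in all 4 samples is close to that background. Of 13 miRNAs of myeloid cells and macrophages, miR-142-5p alone was above background in all 4 samples, 5 were above it in 1 or 2 and 7 in none. Their summed share was 7.47%, 7.14%, 6.78% and 6.48%, most of it miR-142-5p. miR-223 had 3, 4, 9 and 3 counts, miR-21, abundant in many cell types, had 3, 2, 4 and 4, and miR-511, which is encoded in the gene of the mannose receptor of macrophages, had 3, 4, 2 and 3. miR-146a, an inhibitor of Toll-like receptor signalling, had 23, 31, 18 and 28 and passed in 2 samples. miR-155 was at 1 count in each sample. A list with 1 of 13 rows above background in all 4 samples is near the share of all rows, and these values do not tell macrophages from other blood cells.

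Of 9 miRNAs typical of hepatocytes, miR-122 was above background in all 4 samples, miR-194 in 3, 1 in 1 or 2 and 6 in none, the last close to the share of all rows. The summed share of the list was 2.72%, 6.60%, 8.77% and 5.39%, and miR-122 made up most of it. The liver was perfused and digested, the parenchymal cells were spun out, and F4/80-positive cells were drawn out with magnetic beads. The part of hepatocyte RNA in the miR-122 counts was not tested.

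Of 7 red cell miRNAs, miR-486 and miR-16 were above background in all 4 samples and miR-25 in 3, beside 4.42% and 3.71% of all mouse rows. The summed share of the 7 was 2.20% to 2.61%. The defining red cell miRNAs miR-451, with 7, 7, 9 and 6 counts, and miR-144, with 5, 2, 3 and 2, were above it in none. Of 5 lymphocyte rows, miR-150 and miR-181a were above background in all 4 samples and the joint row of miR-181b and miR-181d in 3, beside the same shares of all mouse rows. The summed share of the lymphocyte list was 1.22%, 2.25%, 1.50% and 2.35%, and it was lowest in KC 1 as miR-150 was.

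No miRNA of the endothelial (8 rows), platelet (5 rows) or stellate cell (10 rows) lists was above background in all 4 samples, which at 4.42% of all rows is no result about these lists. miR-126-3p, which defines endothelium, had 5, 3, 1 and 2 counts, and the endothelial list summed to 0.445% to 0.576%. miR-29b and miR-29c of the stellate cell list passed in 3 samples, and that list summed to 1.51% to 1.99%. miRNAs of tissues not sampled summed to 0.577% to 0.844% for 7 nervous tissue rows, 0.646% to 0.873% for 6 striated muscle rows and 0.300% to 0.422% for 4 pancreas rows, and 0 of these 17 rows passed in more than 2 samples. The lists differ in length, and their sums were not compared.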

How the data were processed

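KC and blood monocytes were each sampled 4 times. RNA was isolated with RNeasy Plus Mini and RNA Clean & Concentrator, and the authors used nSolver software. The methods describe normalization for an mRNA panel, and for the miRNA panel the study says only that miRNAs were its references, without naming them. The deposited values are a normalized signal, and the authors scaled each sample by 1 factor, which was read from the values (1.52 to 1.76 in KC) and divided out, giving counts within 0.0032 of whole numbers. With it the geometric mean of the 4 mRNA rows was 816.06 to 816.08 in each KC sample, beside 464 to 535 counts without it. The factor thus made these mRNA rows equal, although the study gives miRNAs as the references. The positive and negative control rows are whole counts without the factor, while the ligation controls carry it. Depth was 8669 to 10194 mouse counts per sample. No test between groups was made, n is 4 pools, and the closing section holds a gap test for single samples. CV and SD are over samples. Recovery of counts was tested on simulated data, and was right in 20 of 20 draws for the 612 scaled rows. Older panel names without an arm were paired with the main arm. The miRNAs and lists were chosen with earlier results of these data known, and all 25 miRNAs are named. The monocyte samples were left out. Alternatives covered the background limit, background subtraction, the denominator and leaving out a sample. Python 3.11.15, pandas 2.3.3 and SciPy 1.17.1 were used.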

Additional observations from a re-analysis of the deposited data

Results flagged for a closer look

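Of 35 gap tests on the 4 KC samples, 6 found 1 sample apart from the other 3, where chance alone gives about 5% for each test. The tests share the same 4 samples and totals, so no excess is read from the 6. The value is the gap to the nearest sample over the whole range, however small that range is. For miR-714 and miR-202-5p the ratio of the spread to that of counting alone was 0.489 and 0.225. KC 3 was high for let-7c (0.851) and miR-130b (0.914), and for miR-714 (0.888), which had 42 counts in KC 3 and 37 to 40 in the others. KC 1 was low for let-7d (0.831). KC 3 was low for miR-202-5p (0.840) and for the median count of a sample (0.857), which was 8 there. Outside the mouse rows, 11 of the 36 virus, plant and worm rows were above the highest negative control in at least 1 KC sample.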

How the results depend on the processing

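With the limit at the mean negative control plus 2 SD, at the highest of negative and negative ligation controls, or at 1 common limit, 23, 25 and 19 miRNAs were above background in all 4 samples. With the mean plus 3 SD there were 15, and with the limit also at the highest of the 36 other rows, chosen after seeing the data, 16, in each case all among the 25. With the deposited signal set against the unscaled controls there were 127, since that raises only the miRNA rows. Leaving out 1 sample gave 26 to 37, the most without KC 2. The share of the 25 miRNAs was 57.9% with the mean and 84.2% with the highest negative control subtracted, and with 1 sample left out it was 29.4% to 34.2% over the same 25 rows and 31.5% to 36.1% over the 26 to 37 rows that then passed. The share of the 10 highest was 49.2% and 76.0% with these subtractions, 51.8% of the miRNAs above background alone, and 22.9% to 27.8% with 1 sample left out. The median rho of 0.773 was 0.855 over all mouse rows, and with 1 sample left out it was 0.756 to 0.862 over the same 25 rows and 0.717 to 0.850 over the rows that then passed, in both cases highest without KC 1 and lowest without KC 2. Keeping the 25 rows was chosen after seeing the data. Subtracting the mean or using the 25 as the denominator moved all 25 mean shares by more than 1 SD. Leaving out 1 of 4 samples cannot move a mean by as much as 1 SD, so it shows nothing on their stability, and miR-2141 went from 0.859% to 0.580% without KC 1. No paired analysis was possible because every result here describes the KC samples alone and comes from no test between groups.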
